A study of Caenorhabditis elegans with 59 samples.

Results

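The 8 genes C16C8.4, C16C8.5, C16C8.16, C16C8.20, C16C8.13 (gldi-6), C16C8.21, C16C8.14 and C16C8.12 lie beside each other on chromosome II of Caenorhabditis elegans, in that order in the reference annotation (WBcel235). They were followed because C16C8.16 had no reads in generation 1 mRNA of the prg-1; mut-14 smut-1 triple mutant, so the triple mutant mRNA levels chose the group and are described here without a test. The 8 were picked by their sequence names out of 22686 entries of the generation 1 mRNA table. Not all of them were missing: 4 members, C16C8.16, C16C8.20, C16C8.21 and C16C8.14, had no generation 1 reads in the triple mutant, and the other 4 were read in each of its libraries. The reference lists all 8 as protein coding. The deposited tables name no function for them.

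PRG-1 is the PIWI Argonaute of the worm germline. It carries piRNAs, short RNAs that pair imperfectly with many germline transcripts. Transcripts found in this way become templates for RNA-dependent RNA polymerases, which make antisense secondary small RNAs in perinuclear mutator foci. MUT-14 and SMUT-1 are DEAD-box RNA helicases of those foci that can stand in for each other. The secondary small RNAs are loaded onto worm-specific Argonautes (WAGOs), which are known for silencing, or onto CSR-1, which is known for marking expressed germline genes.

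RNA came from whole gravid adults kept at 20 °C on OP50 bacteria, in 59 libraries of 20 groups, each of 3 libraries except 1 of 2. The wild type was N2. The prg-1 strain was SX922, prg-1(n4357) I. The mut-14 smut-1 strain was GR1948, which carries unc-119(ed3) III beside mut-14(mg464) smut-1(tm1301) V, so each comparison of it with N2 also compares the unc-119 allele. The triple mutant, GR2070, joined prg-1(n4357) on chromosome I with mut-14(mg464) and smut-1(tm1301) on chromosome V, and the labels give no unc-119(ed3) for it. A separate small RNA pair set WM161, prg-1(tm872) I, beside N2 at 68 h. Generation 1 animals were collected at 72 h, and so were the wild-type polyA and total RNA libraries. Generation 50 had lines 1 to 3 of N2, prg-1(n4357), mut-14 smut-1 and the triple mutant, with no age given. Nothing in the labels says that the replicates outside generation 50 were separate cultures, so p-values there measure the spread between libraries, which may be technical. All triple mutant libraries came from strain GR2070, so the 3 mutations and anything else that strain carries cannot be told apart.

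Values are read counts divided by library factors, as deposited, and are called normalized counts. Small RNA libraries held 224056 to 2117438 reads in generation 1, 1533620 to 2452755 in the tm872 pair and 4417660 to 13038182 at generation 50, and mRNA libraries about 12055717 to 63839753. The mutated genes followed the labels. Generation 1 prg-1 mRNA was 10339 ± 315 (SD, n = 3) in the wild type, 3905 ± 81.4 in the prg-1 strain and 2708 ± 107 in the triple mutant. Generation 1 mut-14 mRNA was 1810.2 ± 52.99 in the wild type, 42.7 ± 5.82 in the mut-14 smut-1 strain and 39.2 ± 7.30 in the triple mutant. In those groups smut-1 was 1702 ± 33.4, 251 ± 15.3 and 250.0 ± 27.6. unc-119 was 97.8 ± 12.9 in the wild type, 27.7 ± 3.35 in the mut-14 smut-1 strain and 58.1 ± 10.3 in the triple mutant. Whole animals mix germline and soma, and fewer cells of a type cannot be told apart from less RNA per cell.

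Germline markers differed between genotypes and between sets of wild-type libraries, and the part of this in the results on the 8 genes was not tested. The summed level of 31 spermatogenesis genes in generation 1 mRNA was 1776 to 2513 in the wild type, with 1 gene at 0, and 7479 to 8215 in the prg-1 strain, 16975 to 19997 in the mut-14 smut-1 strain and 25087 to 30606 in the triple mutant, with none at 0. In generation 50 mRNA that sum was 75.0 to 8352 in the wild type, 8576 to 22041 in the prg-1 strain, 6783 to 17887 in the mut-14 smut-1 strain and 10022 to 22077 in the triple mutant. The wild-type polyA and total RNA libraries, also of 72 h animals but normalized separately, had sums of 27649 to 32965 and 26044 to 31069. Wild-type sets at 72 h thus differed too, and the reason was not tested. The 12 oocyte and eggshell genes summed to 301923 to 326711 in generation 1 wild type, 244214 to 265312 in the prg-1 strain, 187634 to 211821 in the mut-14 smut-1 strain and 188161 to 214738 in the triple mutant, with none at 0. Marker counts stand against the shares of all genes called. In prg-1 and mut-14 smut-1 these were 25.6% and 38.1% higher with 32% and 39.9% lower in generation 1, and 7.41% and 16.5% higher with 3.8% and 11.3% lower at generation 50. Of 30 spermatogenesis genes tested, all 30 rose in both strains in generation 1, and 16 and 19 rose at generation 50 (11 in prg-1 with TMM scaling). Of 12 oocyte genes, 10 and 12 fell in generation 1 and 0 and 7 at generation 50, in the same order. Early embryo genes fell in 2 and 6 of 9 in generation 1 and in 1 and 3 of 10 at generation 50. Body wall muscle genes rose in 9 and 10 of 10 and then in 1 and 3 of 10. Among 12 intestine genes, 1 rose in prg-1 (2 with TMM scaling and 3 with library totals), 5 rose and 7 fell in mut-14 smut-1 in generation 1, and at generation 50 none was called in prg-1 and 1 rose in mut-14 smut-1.

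C16C8.16 mRNA was read in each library of every strain but the triple mutant. In generation 1 its normalized counts were 915, 922 and 927 in the wild type, 926, 963 and 1052 in the prg-1 strain, 931, 918 and 920.4 in the mut-14 smut-1 strain, and 0 in all 3 triple mutant libraries. With a floor of 3 reads over the triple mutant group, its level was at least 926-fold lower than in the wild type. At generation 50 it was 1260.0, 1199.6 and 1035 in the wild type, 1447, 1599 and 1613 in the prg-1 strain, 1848, 1637 and 1657 in the mut-14 smut-1 strain, and 0, 0 and 0.533 in the triple mutant. The value of 0.533 is 1 read, which puts the wild type 6231-fold above the triple mutant with a 95% counting interval of 1117 to 246191. Floors and intervals here cover counting error only.

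C16C8.14 was absent in the same way. It stood at 144, 133 and 153 in the generation 1 wild type, 148, 153 and 157 in the prg-1 strain, 185, 165 and 172 in the mut-14 smut-1 strain and 0 in the 3 triple mutant libraries, which is at least 144-fold lower than the wild type. At generation 50 it was 193, 248 and 171 in the wild type, 240.5, 259 and 295 in the prg-1 strain, 471, 777 and 327 in the mut-14 smut-1 strain and 0, 0.602 and 0 in the triple mutant. That was again 1 read, with the wild type 1100-fold higher (95% counting interval 196 to 43521). No triple mutant library came near the range of the other genotypes.

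The genes C16C8.20 and C16C8.21 had no mRNA read in any of the 6 triple mutant libraries. C16C8.20 was 36.1, 28.3 and 37.8 in the generation 1 wild type, 50.7, 49.5 and 82.8 in the prg-1 strain and 57.8, 46.9 and 67.1 in the mut-14 smut-1 strain, and the triple mutant was at least 34.2-fold below the wild type. C16C8.21 was 22.3, 17.0 and 11.5 in the wild type, 14.5, 22.9 and 16.6 in the prg-1 strain and 12.8, 16.4 and 13.8 in the mut-14 smut-1 strain, and the triple mutant was at least 17.0-fold lower. Both had few reads, 108 and 55 reads over the generation 1 wild type, which sets how far below it the triple mutant could be measured. At generation 50 the bounds were at least 81.3-fold for C16C8.20 and at least 46.6-fold for C16C8.21.

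**Figure D1:**
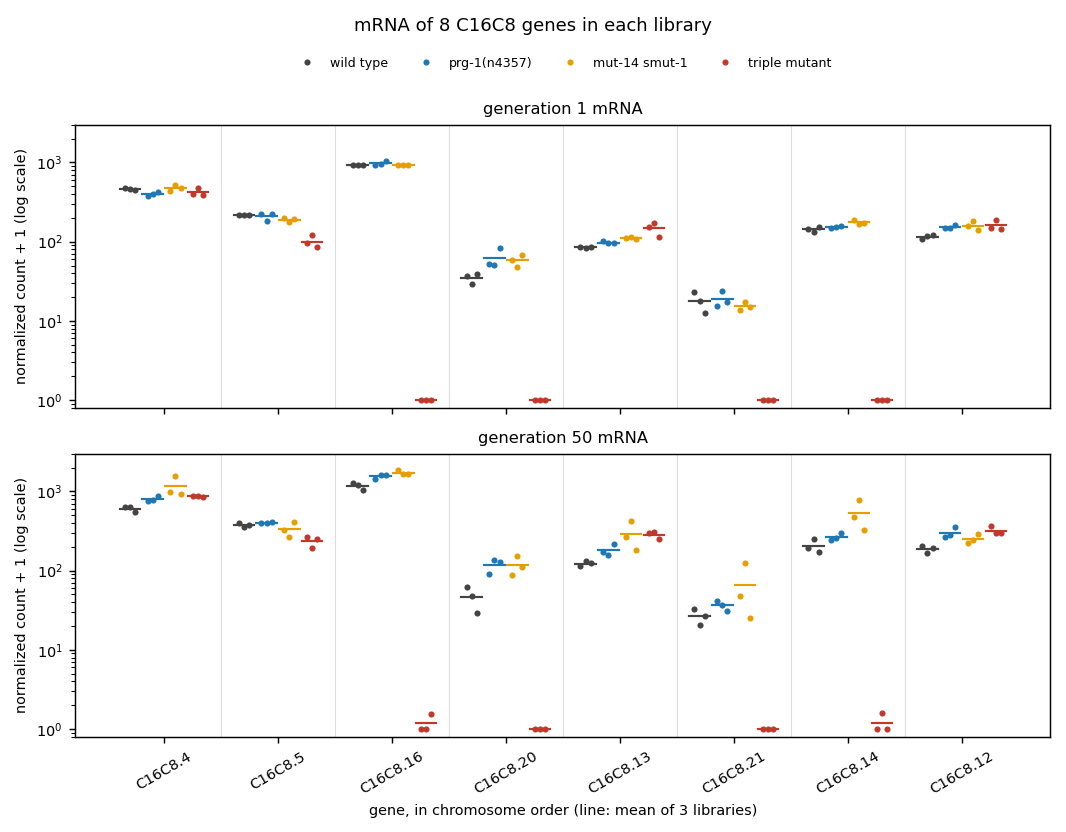
Normalized mRNA count + 1 on a log scale for the 8 genes in chromosome order, with 1 point per library, a line at the mean of 3 libraries and a colour per genotype, for generation 1 (top) and generation 50 (bottom). The triple mutant points of C16C8.16, C16C8.20, C16C8.21 and C16C8.14 sit at the bottom, at 0 or 1 read, and those of C16C8.4, C16C8.5, C16C8.13 and C16C8.12 sit near the other genotypes.

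The other 4 members kept their mRNA in the triple mutant, at levels that differed from gene to gene. C16C8.5, the neighbour of C16C8.16 on one side, was the lower case, with 94.3, 119.005 and 84.5 in the generation 1 triple mutant beside 218, 215 and 216 in the wild type, 222, 180.0 and 221 in the prg-1 strain and 198, 176 and 193 in the mut-14 smut-1 strain. Its mean was 45.8% of the wild type, and each triple mutant library was below all 9 others. At generation 50 it was 262, 193 and 246 in the triple mutant, 395, 351 and 371 in the wild type, 396, 394 and 407 in the prg-1 strain and 324, 266 and 413 in the mut-14 smut-1 strain. That mean was 62.8% of the wild type, and again no other library was as low.

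C16C8.13 went the other way. It was 151, 172 and 114 in the generation 1 triple mutant against 85.9, 81.2 and 85.0 in the wild type, a mean of 173% of the wild type. At generation 50 it was 295, 310.4 and 248 against 112, 129.7 and 123, or 234%. In both generations the triple mutant lay above every wild-type library. Generation 1 means were 96.0 in the prg-1 strain, 110 in the mut-14 smut-1 strain and 146 in the triple mutant. At generation 50 they were 179, 290 and 284, so the mut-14 smut-1 strain was as high there. In the reference, C16C8.20, C16C8.21 and C16C8.14 all lie inside the span of C16C8.13, as does C16C8.25, which was not analysed here. Counting by strand is not stated, so reads of these overlapping genes may be shared between them, and the values of C16C8.13 and of the 3 members inside it are uncertain to that extent.

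C16C8.12 and C16C8.4, the outermost members, lay nearer to the wild type or above it. C16C8.12 was 149.6, 188 and 141.8 in the generation 1 triple mutant and 106, 116 and 121 in the wild type (140% as a ratio of means), and 360.2, 295 and 301 against 206, 166 and 191 at generation 50 (170%). C16C8.4 was 395, 475 and 382 against 475, 461 and 451 in generation 1 (90.3%), and 866, 872 and 849 against 628, 625 and 552 at generation 50 (143%). C16C8.4 overlapped the wild type in generation 1, where library totals put it at 105%, and lay above it at generation 50.

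The absence of reads was counted over the whole mRNA tables. This restates the values that chose the genes and is a description. Of 12131 generation 1 entries with a mean of at least 10 in each of the other 3 genotypes, 4 (0.033%) had no read in the triple mutant, and all 4 were members. The same search found 2 entries without reads in prg-1, 1 in the mut-14 smut-1 strain and 3 in the wild type, none of them a member. At generation 50, 4 of 14042 entries (0.0285%) had no triple mutant read. They were C16C8.20 and C16C8.21 with W03B1.5 and Y37H2A.3. The same search found 18 entries in the generation 50 wild type and 1 each in prg-1 and in the mut-14 smut-1 strain. With a mean under 1 as the limit, C16C8.16 and C16C8.14 joined them, for 6 entries (0.0427%), beside 55 in the wild type, 1 in prg-1 and 3 in mut-14 smut-1. C16C8.20 and C16C8.21 were the 2 entries with a mean of at least 10 elsewhere in both tables and no read in all 6 triple mutant mRNA libraries. With a mean of at least 50 there were 0, since C16C8.16 and C16C8.14 each had the single generation 50 read.

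The genes on either side were read in the triple mutant. The window of 15 genes beyond each end held 39 genes in all, of which 31 are no member, and 22 of the 31 were in the mRNA tables. Of those, 21 had triple mutant reads in both generations. The exception, Y49F6B.12, was at 0 in the generation 1 wild type and at 0.377 at generation 50. Among the 8 neighbours with a wild-type mean of at least 10 in generation 1, the triple mutant stood at 43.7% (Y49F6B.5) to 211% (C16C8.9) of the wild type, with a median of 89.7%. Among 12 such neighbours at generation 50 the range was 36.5% (F18A12.8) to 435% (C16C8.18), with a median of 80.9%. The generation 50 wild-type mean of C16C8.18 was 12.4 ± 18.4 (SD, n = 3; 1.13 to 33.6), and 5 of the 12 neighbours (also C16C8.7, C16C8.9, C16C8.19 and Y49F6B.13) had a wild-type SD above their mean. The other 7 ranged from 36.5% to 160% (C16C8.11), with a median of 82.2%. The nearest measured neighbours, C16C8.22 and C16C8.11, had 377% (from a low wild-type mean of 6.02) and 108% of the wild-type level in generation 1. In the reference order the 4 absent genes follow each other, with C16C8.13, which spans 3 of them, and C16C8.25 among them.

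**Figure D2:**
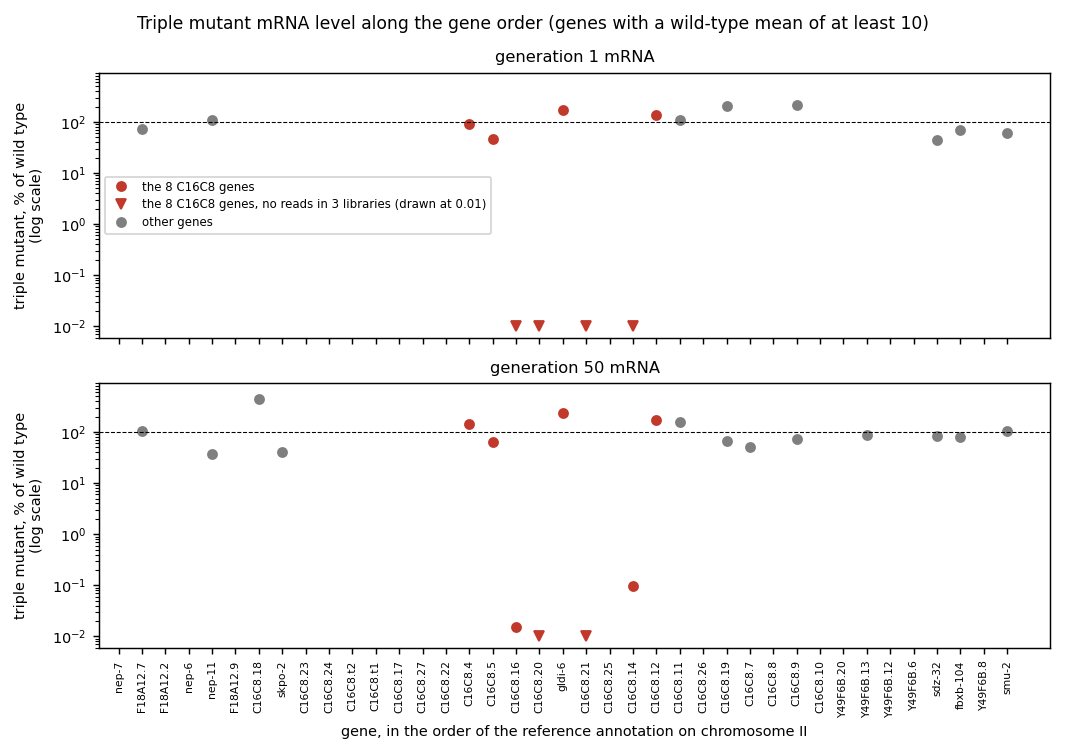
Mean triple mutant mRNA as a percentage of the wild-type mean (log scale) for each gene with a wild-type mean of at least 10, in the order of the reference annotation, with the 8 members in red, other genes in grey and a dashed line at 100%. Triangles are genes without a read in 3 triple mutant libraries and are drawn at 0.01. C16C8.16, C16C8.20, C16C8.21 and C16C8.14 fall out of the row, while the grey neighbours lie between 36.5% and 435%, the latter C16C8.18, whose wild-type SD exceeds its mean.

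The prg-1 and mut-14 smut-1 strains had all 8 mRNAs. Differences from the wild type were tested with limma on log2(normalized count + 1) over all genes, and an adjusted p under 0.05 (Benjamini-Hochberg) was called. The comparisons of prg-1 and of mut-14 smut-1 share the wild-type libraries of their table. The all-zero triple mutant libraries take part in the shared estimate of spread for the absent genes. They add no spread there, which lowers that estimate and can make the p-values of these genes too small. In generation 1 prg-1, 2 of 8 members rose and 1 fell, against 25.6% of all 14618 genes higher and 32% lower (57.6% in either direction). The groups of 4 members did not overlap, against 61.2% of all genes. With TMM scaling or library totals the split of the members was 2 and 0, and 55% or 62.7% of all calls were higher in place of 44.4%. The median log2 change of the 8 was 0.10, and that of all genes was -0.02.

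C16C8.12 rose in generation 1 prg-1 from 106, 116 and 121 to 148, 146 and 161, without overlap, by 0.40 ± 0.12 (log2, SE; adjusted p = 0.0101). C16C8.20 rose by 0.79 ± 0.27 (adjusted p = 0.0203), and its groups did not overlap. That call was lost without prg-1 replicate 3 (0.55, adjusted p = 0.130) and without wild-type replicate 2 (0.67, adjusted p = 0.0825). C16C8.4 fell by 0.21 ± 0.08 (adjusted p = 0.0378), from 475, 461 and 451 to 381, 399 and 417, also without overlap. This call was not held by TMM scaling (-0.14, adjusted p = 0.159), by library totals (-0.09, adjusted p = 0.336) or without each of 5 libraries (adjusted p 0.0536 to 0.113), prg-1 replicate 3 being the exception. C16C8.16 differed by 0.09 ± 0.08 (adjusted p = 0.388), and C16C8.5, C16C8.13, C16C8.14 and C16C8.21 lay between -0.07 and 0.19 and were not called.

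In generation 1 mut-14 smut-1, 3 members rose and none fell, against 38.1% of all genes higher and 39.9% lower (78% in either direction), with a median of 0.16 for the members and 0.04 for all genes. C16C8.12 went to 158, 179 and 139, a rise of 0.46 ± 0.12 (adjusted p = 0.00261). C16C8.13 went from 85.9, 81.2 and 85.0 to 111, 113.4 and 107, a rise of 0.39 ± 0.13 (adjusted p = 0.0138). C16C8.20 rose by 0.73 ± 0.27 (adjusted p = 0.0223), a call lost without mut-14 smut-1 replicate 1 (adjusted p = 0.0625) or 3 (adjusted p = 0.1001) or wild-type replicate 2 (adjusted p = 0.0884). None of these 3 overlapped the wild type, and 5 of 8 members in all did not, against 80.8% of all genes. C16C8.16 stayed at 0.00 ± 0.08 (adjusted p = 0.976). Library totals in place of the deposited scaling gave 6 higher and 0 lower, C16C8.16 among them (0.22, adjusted p = 0.0355), with the median of all genes up by 0.21 and 61.5% of all calls higher in place of 48.8%. The fit of only these 2 groups called 5.

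At generation 50 the spread between lines was wider. In prg-1, 2 of 8 members rose, against 7.41% of all 16328 genes higher and 3.8% lower (11.2% in either direction), with a median of 0.43 for the members and 0.04 for all genes. C16C8.20 rose from 60.3, 47.5 and 28.3 to 89.4, 137 and 126, by 1.40 ± 0.37 (adjusted p = 0.0370). C16C8.12 rose from 206, 166 and 191 to 262, 279 and 352, by 0.66 ± 0.18 (adjusted p = 0.0417). Both stood clear of the wild type, and 5 of 8 members did not overlap it, against 34.8% of all genes. Neither call was firm: C16C8.20 lost it without any 1 line but wild-type line 1 (adjusted p 0.0523 to 0.139) and C16C8.12 without any 1 line (adjusted p 0.0534 to 0.148), and the fit of only these 2 groups called 0. C16C8.16 was 0.42 ± 0.19 higher (adjusted p = 0.197).

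In generation 50 mut-14 smut-1, 5 members rose and none fell, against 16.5% of all genes higher and 11.3% lower (27.8% in either direction). The members' median was 0.95 and that of all genes 0.01. C16C8.4 rose from 628, 625 and 552 to 982, 1572 and 923, by 0.90 ± 0.18 (adjusted p = 0.00554). C16C8.13 rose from 112, 129.7 and 123 to 267, 420.2 and 182, by 1.16 ± 0.27 (adjusted p = 0.0105), and C16C8.14 by 1.29 ± 0.34 (adjusted p = 0.0169). C16C8.20 went to 87.1, 150.3 and 111, a rise of 1.37 ± 0.37 (adjusted p = 0.0204). C16C8.16 rose by 0.56 ± 0.19 (adjusted p = 0.0499), a call lost without any 1 of the 6 lines (adjusted p 0.0593 to 0.173).

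The groups of these 5 genes and of C16C8.12 did not overlap the wild type (6 of 8 members, against 41% of all genes). Library totals also gave 5 and 0, with 69.4% of all calls higher in place of 59.4%. Line 2 of mut-14 smut-1 had the highest value of C16C8.4, C16C8.13, C16C8.14, C16C8.20 and C16C8.21, the last at 123 beside 46.8 and 24.1. Without that line 3 members were called, with C16C8.20 at adjusted p = 0.0533. Without wild-type line 3 there were 2, with C16C8.14 at adjusted p = 0.0694 and C16C8.20 at adjusted p = 0.0871. The fit of only these 2 groups called 3, with C16C8.13 at adjusted p = 0.0547 and C16C8.20 at adjusted p = 0.0567. C16C8.5 was not called in any of these mRNA comparisons, with log2 differences of -0.07 and -0.20 in generation 1 and 0.10 and -0.18 at generation 50 for prg-1 and mut-14 smut-1.

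**Figure D3:**
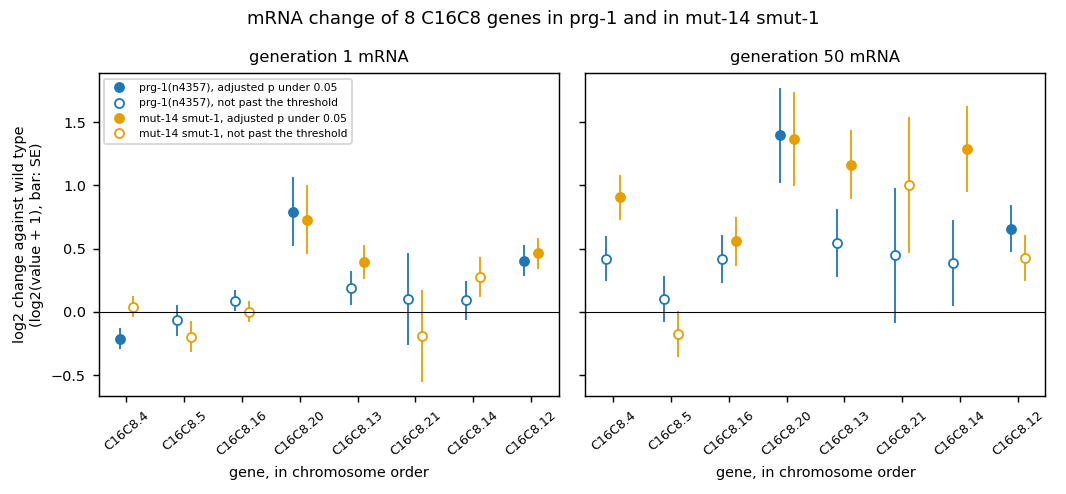
Log2 change of mRNA against the wild type on the log2(value + 1) scale, with bars of 1 SE, for the 8 genes in prg-1 (blue) and mut-14 smut-1 (orange), in generation 1 (left) and generation 50 (right), with filled points past the threshold of 0.05. Filled points reach 0.79 in generation 1 and 1.40 at generation 50, both C16C8.20 in the prg-1 strain.

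No member passed the threshold between the 2 library types. In the wild type at 72 h, polyA libraries and total RNA libraries gave 0 of 8 members called, against 16.3% of 14570 genes (5.47% higher in polyA and 10.8% lower), with 1 member at an unadjusted p under 0.05 (C16C8.5, 0.0365). C16C8.16 was 2138, 1929 and 2028 in polyA and 1939, 1721 and 1853 in total RNA, and C16C8.5 was 423, 355 and 417 against 355, 325 and 341. The log2 differences of the 8 ran from -0.04 to 0.26, with a median of 0.12 beside 0.07 for all genes. The groups of all 8 overlapped, while those of 35.3% of all genes did not.

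Small RNAs of the 8 genes did not all change alike. Those of C16C8.21 and C16C8.20 were nearly gone in each mutant. Those of C16C8.4, C16C8.14 and C16C8.16 fell by smaller folds or were not called, and those of C16C8.5 and C16C8.13 were not called in any comparison with the deposited scaling, while C16C8.12 was under the filter on low values. The generation 50 small RNA table, in which the authors sorted genes by class, lists C16C8.20 and C16C8.21 in the mut class and C16C8.5 in the csr class, and the other 5 members have no entry in it.

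C16C8.21 small RNA in generation 1 was 511, 436 and 488 in the wild type, 18.1, 1.86 and 3.95 in the prg-1 strain, and 0 in both mut-14 smut-1 libraries. prg-1 was lower by 6.21 ± 0.74 on the log2 scale (limma, adjusted p = 3.37e-05), and mut-14 smut-1 was at least 271-fold lower, from a floor of 3 reads over the group (adjusted p = 5.09e-06), or at least 122-fold with library totals. C16C8.20 was 119.02, 109 and 126 in the wild type, 4.54, 1.86 and 2.96 in the prg-1 strain and 4.39 and 1.60 in the mut-14 smut-1 strain. Its log2 changes were -4.90 ± 0.33 (adjusted p = 5.38e-07) and -4.99 ± 0.37 (adjusted p = 9.81e-07). The highest mutant library of C16C8.21 was at 18.1 and that of C16C8.20 at 4.54, with the lowest wild-type libraries at 436 and 109.

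C16C8.4, C16C8.16 and C16C8.14 small RNAs were lower in prg-1 by smaller amounts. C16C8.4 was 54.996, 44.6 and 54.6 in the wild type and 10.2, 13.9 and 18.8 in the prg-1 strain, a change of -1.81 ± 0.25 (adjusted p = 0.000104). C16C8.14 went from 10.7, 11.1 and 14.2 to 2.27, 6.4996 and 4.94, a change of -1.30 ± 0.31 (adjusted p = 0.00392), on 14 reads over the prg-1 group. C16C8.16 went from 38.6, 36.5 and 35.1 to 12.5, 20.4 and 15.8, a change of -1.15 ± 0.41 (adjusted p = 0.0293). The groups of all 3 genes stood apart, but the call of C16C8.16 was lost without any 1 of 5 libraries (adjusted p 0.0630 to 0.0929), prg-1 replicate 2 being the exception. C16C8.5 (-0.09) and C16C8.13 (-0.21) were not called, and C16C8.12, at 2.99 to 4.92 in the wild type, was under the filter on low values. C16C8.14, C16C8.20 and C16C8.21 passed that filter only through their wild-type libraries. Hardly any call but a lower one was open to them, and the counts of members lower include them. In prg-1, 5 of 7 members tested were thus lower and none higher, against 38.3% of 7418 genes lower and 27.9% higher (66.2% in either direction), and those 5 were the members whose groups did not overlap, against 76.4% of all genes. Library totals also called 5 lower, with the median of all genes moved by -0.56 and 14.6% of all calls higher in place of 42.1%.

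In mut-14 smut-1, 4 of 7 members were lower, against 46.9% of genes lower and 21.9% higher (68.7% in either direction), and 5 of 7 did not overlap, against 80% of genes. Besides C16C8.20 and C16C8.21 these were C16C8.4, at 19.8 and 29.7 (-1.05 ± 0.28, adjusted p = 0.00720), and C16C8.14, at 4.39 and 6.42 (-1.03 ± 0.35, adjusted p = 0.0225). Both were lost without mut-14 smut-1 replicate 1 (adjusted p = 0.0731 and 0.147), a library of 224056 reads, and C16C8.14 also without wild-type replicate 3 (adjusted p = 0.0655). Both calls depended on the scaling. With library totals the median of all genes moved by 1.09, 60.4% of all calls were higher in place of 31.8%, the log2 change of C16C8.4 was 0.07 and that of C16C8.14 was -0.01, and the split was 1 member higher and 2 lower. C16C8.16 was 22.0 and 24.1, or -0.65 ± 0.46 (adjusted p = 0.228), which was 0.46 with library totals. It was called with a pseudocount of 5 (adjusted p = 0.0311) and in the fit of only these 2 groups (adjusted p = 0.0113). C16C8.20 and C16C8.21 kept their direction and call with every scaling. Here too C16C8.14, C16C8.20 and C16C8.21 had passed the filter only through the wild type.

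The independent allele prg-1(tm872) was set beside its own wild type at 68 h. C16C8.21 went from 737, 814 and 698 to 6.01, 4.23 and 8.496, a change of -6.73 ± 0.20 (adjusted p = 2.85e-09). C16C8.20 went from 157, 189 and 131 to 9.01, 5.29 and 8.496, a change of -4.23 ± 0.24 (adjusted p = 1.85e-07). Neither gene had a mutant library near the wild type.

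Smaller decreases in prg-1(tm872) were those of C16C8.4 (88.0, 90.2 and 76.1 to 31.05, 37.02 and 28.7, -1.37 ± 0.16, adjusted p = 3.53e-05), C16C8.14 (15.3, 18.0 and 18.1 to 7.01, 5.29 and 5.31, -1.41 ± 0.24, adjusted p = 0.000493) and C16C8.16 (61.2, 39.7 and 54.4 to 31.05, 27.5 and 22.3, -0.91 ± 0.22, adjusted p = 0.00426). C16C8.5 (0.11) and C16C8.13 (-0.21) were not called, and C16C8.12 was under the filter. C16C8.14, C16C8.20 and C16C8.21 again passed the filter only through the wild type, so hardly any call but a lower one was open to them. The 5 of 7 members that were lower stood beside 41.4% of 7273 genes lower and 34.2% higher (75.6% in either direction). These 5 were also the members without overlap, against 78.8% of all genes, and leaving out any 1 library gave 5 again. The members' median log2 change was -1.37, beside -0.05 for all genes, and -1.30 beside -0.10 in prg-1(n4357).

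At generation 50, C16C8.21 small RNA was 954, 1768 and 1489 in the wild type, 6.28, 1.85 and 3.92 in the prg-1 strain and 5.96, 10.1 and 1.197 in the mut-14 smut-1 strain. The changes were -8.18 ± 0.59 (adjusted p = 9.73e-08) and -7.94 ± 0.59 (adjusted p = 2.94e-07). C16C8.21 passed the filter on low values only through the wild type, so hardly any call but a lower one was open to it. C16C8.20 was 173, 596 and 395 in the wild type, with line 1 the lowest, 8.38, 12.9 and 15.7 in the prg-1 strain and 15.9, 13.05 and 11.97 in the mut-14 smut-1 strain, changes of -4.74 ± 0.40 (adjusted p = 3.85e-07) and -4.57 ± 0.40 (adjusted p = 1.20e-06). C16C8.5 was 52.2, 78.3 and 68.3 in the wild type, 55.5, 57.4 and 61.7 in the prg-1 strain and 43.7, 56.5 and 73.0 in the mut-14 smut-1 strain, overlapping groups that were not called. In each strain 2 of 3 members listed were lower, and did not overlap the wild type. In prg-1 this stood against 57.3% of 10968 features lower, 21.3% higher (78.7% in either direction) and 82.3% without overlap. In mut-14 smut-1 it stood against 26% lower, 52.8% higher (78.7% in either direction) and 85.2% without overlap. Of the 23411 generation 50 small RNA features before the filter, 15366 were piRNAs and 375 were microRNAs. The other small RNA sets list neither, so these shares are not shares of genes alone and are unlike those above. The part of piRNAs in them was not counted. With TMM scaling C16C8.5 too was called lower in mut-14 smut-1, the median of all features moved by -0.64, and 40.8% of all calls were higher in place of 67%. In prg-1, TMM moved that median by -0.36 and the share of calls higher from 27.1% to 12.7%, with 2 members lower as before.

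**Figure D4:**
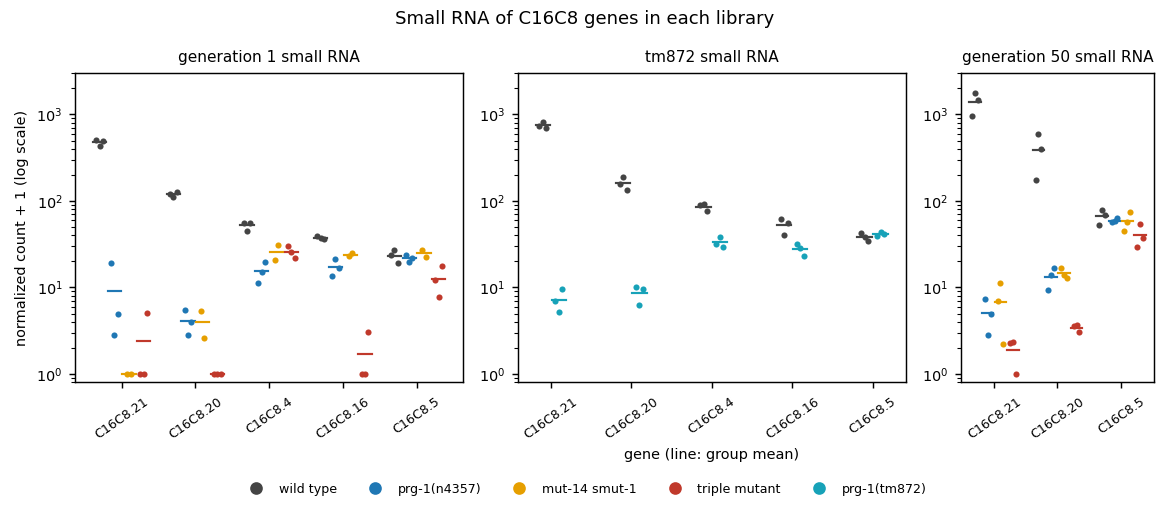
Normalized small RNA count + 1 on a log scale for C16C8.21, C16C8.20, C16C8.4, C16C8.16 and C16C8.5 in generation 1 (left) and the tm872 pair (middle), and for C16C8.21, C16C8.20 and C16C8.5 at generation 50 (right), with 1 point per library, a line at each group mean and a colour per genotype. Mutant points of C16C8.21 stay at 18.1 or below while the wild type is at 436 or above, and those of C16C8.5 stay near the wild type outside the triple mutant.

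Small RNA of the 4 genes without mRNA was also at or near 0 in the triple mutant. C16C8.20 had no generation 1 small RNA read there, at least 108-fold lower than the wild type, and C16C8.14 had none either, at least 11.006-fold lower. With library totals, added after the data were seen, these bounds were 49.98-fold and 5.08-fold. C16C8.16 was at 0, 0 and 2.06, which is 1 read, with the wild type 101-fold higher (95% counting interval 17.8 to 4004), or 46.6-fold with library totals. The lowest prg-1 or mut-14 smut-1 library of C16C8.16 was at 12.5. C16C8.21 was at 0, 0 and 4.13, which is 2 reads in 1 library, and that library lay among the prg-1 values of 1.86 to 18.1. Those at 0 lay below every prg-1 library and level with both mut-14 smut-1 libraries.

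At generation 50 the triple mutant had a few small RNA reads at genes without an mRNA read. C16C8.20 stood at 2.56, 2.67 and 2.04 on 5 reads, or 0.624% of the wild type, and C16C8.21 at 1.2798, 1.34 and 0 on 2 reads, or 0.0622%. C16C8.20 lay below every library of prg-1 and of mut-14 smut-1, and C16C8.21 overlapped the range of mut-14 smut-1. The members that kept their mRNA kept small RNA too. In the generation 1 triple mutant C16C8.4 was at 29.3, 24.6 and 20.6, C16C8.13 at 20.8, 27.3 and 18.6, C16C8.5 at 11.1, 6.83 and 16.5 and C16C8.12 at 1.30, 5.47 and 2.06. C16C8.5 was there below every other library, the lowest of which was 17.9, but library totals put its mean at 111% of the wild type. They also put C16C8.4 at 105% of the wild type in place of 48.4%. At generation 50 the C16C8.5 values of 28.2, 53.5 and 36.6 overlapped the wild type.

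Across the 24 generation 1 and generation 50 mRNA libraries, each table centred on its mean, the genes whose log2 level ran most like C16C8.16 were C16C8.14 (Pearson r = 0.994), C16C8.20 (0.984), C16C8.21 (0.972) and C16C8.5 (0.882). These r describe the pattern that chose the genes, and the points share libraries and the triple mutant zeros. The 8 genes closest among the rest had r from 0.761 to 0.854. They were ZK228.3, F35F10.1, txt-11, the C-type lectin gene clec-65, Y49G5A.1, H05C05.2, T20D4.3 and exh-1, and all were read in the triple mutant. ZK228.3 was at 184 in the generation 1 wild type and 126 in the triple mutant, and at 294 and 73.3 at generation 50. C16C8.4 (0.03), C16C8.12 (-0.43) and C16C8.13 (-0.56) did not follow C16C8.16.

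Other C16C8 genes differed from the members in places. C16C8.11, which adjoins C16C8.12, had small RNA of 164 in the generation 1 wild type and 15.1 in the prg-1 strain and 15.7 in the mut-14 smut-1 strain (log2 changes -3.36 and -3.30, adjusted p = 2.83e-07 and 6.55e-07). Its mRNA was 268 in the wild type, 286 in the prg-1 strain, 243 in the mut-14 smut-1 strain and 289 in the triple mutant, and no difference was called in prg-1 or mut-14 smut-1. This neighbour thus had less small RNA in both strains and kept its mRNA in the triple mutant. C16C8.18, on the other side, rose in mRNA from 7.78 to 26.5 in the prg-1 strain (1.64 ± 0.30, adjusted p = 0.000225) and to 65.5 in the mut-14 smut-1 strain (2.95 ± 0.30, adjusted p = 1.54e-07) in generation 1. skpo-2 (C16C8.2), which encodes a peroxidase, and C16C8.22 rose in generation 1 mut-14 smut-1 by 1.88 (adjusted p = 3.74e-05) and 1.29 (adjusted p = 0.00219). With generation 1 wild-type means of 7.78, 6.21 and 6.02, C16C8.18, skpo-2 and C16C8.22 passed the filter on low values only through mutant libraries. Hardly any call but a rise was thus open to them. Wild-type polyA and total RNA libraries, normalized separately, held C16C8.18 at 164 and 145, skpo-2 at 17.1 and 21.4 and C16C8.22 at 24.1 and 22.7. Under limma in generation 50 mut-14 smut-1, C16C8.18 was called higher (3.26, adjusted p = 0.0234). There skpo-2 (-1.43, adjusted p = 0.170) and C16C8.22 (2.16, adjusted p = 0.110) were not called.

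Genes of the small RNA pathway were measured beside the members. Of 41 small RNA amplification, mutator and Argonaute genes, 4 rose and 27 fell in generation 1 prg-1, 5 rose and 34 fell in mut-14 smut-1, and at generation 50 the counts were 4 and 2 and then 5 and 10. The list's median was -0.19, -0.49, 0.12 and -0.09 beside -0.02, 0.04, 0.04 and 0.01 for all genes. The shares of all genes called in each direction are those given with the cell type markers. The genes that fell include those mutated in each strain, prg-1 itself (-1.40 in generation 1) and mut-14 (-5.38) and smut-1 (-2.76). With library totals, an alternative added after the data were seen, the generation 1 counts were 8 rising and 14 falling in prg-1 and 6 and 27 in mut-14 smut-1. At generation 50 they gave 6 rising and 6 falling in mut-14 smut-1. parn-1, which encodes the nuclease that trims piRNA ends, rose in generation 1 prg-1 by 1.75 ± 0.05 (adjusted p = 7.07e-14), and alg-3, a spermatogenesis Argonaute gene, by 2.00 ± 0.20 (adjusted p = 7.50e-07). nrde-3, a nuclear Argonaute gene, fell by 1.00 ± 0.06 on that scale (adjusted p = 2.98e-09). None of the listed genes was at 0 in the generation 1 triple mutant. Of 17 ubiquitin and ubiquitin-like genes with their activating enzymes, 11 and 16 fell in generation 1 prg-1 and mut-14 smut-1 (medians -0.18 and -0.41), where 32% and 39.9% of all genes fell. TMM scaling left 5 and 14, and library totals 3 and 10. At generation 50 none was called in prg-1, and 1 rose and 3 fell in mut-14 smut-1. Of 32 proteasome subunits, 31 and 32 fell in generation 1 (medians -0.19 and -0.51), and 0 and 13 at generation 50, where 3.8% and 11.3% of all genes fell. In generation 1 prg-1 the 31 became 20 with TMM scaling and 11 with library totals, and in mut-14 smut-1 all 32 fell under both.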

How the data were processed

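The values used are the deposited normalized counts of 6 tables, a signal obtained by the authors from read counts per gene divided by library factors, as the values themselves show. The sources used here do not give the aligner, counting tool or genome build. The labels name 2 stranded kits for mRNA but not the libraries made with each. Each library was divided by a fitted step taken as 1 read. Among low values, this turned 100% of small RNA values and 94.8% to 97.4% of mRNA values into whole reads (within 0.1). Higher values were left out of these shares. The mRNA reads are thus approximate, and no count test between strains was run there. The mRNA floors and counting intervals do rest on these rounded reads and are approximate too. The design assumed counts, and limma 3.58.1 (R 4.3.3) on log2(value + 1) replaced it. It was fitted over all groups of a table with a mean-variance trend, for features with 10 or more in as many libraries as the smallest group holds, with Benjamini-Hochberg adjustment over 10 contrasts taken separately. On simulated tables the fit was checked to recover known changes. Where an mRNA table held second entries of a gene (158 in each), the entry with the highest sum over the libraries was kept. Names and order came from WBcel235 (21283 of 22686 generation 1 mRNA entries matched), and no coordinates are given since the tables name no build. edgeR 4.0.16 and DESeq2 1.42.0 were alternatives on small RNA reads. Floors are 3 reads over a group, and intervals are exact binomial at 95%.

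The members, gene lists and tests were chosen with earlier results of these data known. Named genes were the 8 members, the mutated genes, other C16C8 genes, 15 genes on each side, the 8 genes most like C16C8.16, and, from lists of oocyte, spermatogenesis, intestine, early embryo, body wall muscle, small RNA pathway, ubiquitin and proteasome genes, up to 3 each way, of which a selection is printed.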

Additional observations from a re-analysis of the deposited data

Results flagged for a closer look

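C16C8.4 mRNA went opposite ways in prg-1 at the 2 generations. Each generation 1 prg-1 library lay below every wild-type library of its table, with a log2 change of -0.21, and each generation 50 prg-1 line lay above every wild-type line, with a log2 change of 0.42. The difference between the generations was not tested, since the tables were normalized separately. The generation 1 change did not pass the threshold with TMM scaling or library totals, and the generation 50 change did not pass it with the deposited scaling (adjusted p = 0.161).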

How the results depend on the processing

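The counts of members called that moved past 1.5 times the main count were as follows. In generation 1 mRNA mut-14 smut-1 (3 called), library totals gave 6 and the fit of only the 2 groups 5. In generation 50 mRNA prg-1 (2 called), no filter gave 0, a filter of 50 gave 1 and the fit of only the 2 groups 0, and in mut-14 smut-1 (5 called) the fit of only the 2 groups gave 3. A filter of 50 gave 3 in generation 1 small RNA prg-1 and 3 in the tm872 pair (5 called in each), since fewer members then entered. Leaving out 1 library gave 1 to 2 in generation 1 mRNA prg-1 (3 called), 2 to 3 in mut-14 smut-1, 0 to 1 and 2 to 5 in the same strains at generation 50, 4 to 5 and 2 to 4 in generation 1 small RNA, 5 in the tm872 pair, 2 in both generation 50 small RNA contrasts and 0 for polyA. Changes of sign were seen for C16C8.16 in generation 1 mRNA mut-14 smut-1, from 0.0028 to -0.0030 without mut-14 smut-1 replicate 1 and -0.0024 without wild-type replicate 1 (-0.0030 to 0.0075 over the 6 libraries), and for small RNA of C16C8.16 (0.46) and C16C8.4 (0.068) in generation 1 mut-14 smut-1 with library totals. Where no setting is named as the reason, the cause was not tested.

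Replicate numbers did not pair the libraries: deviations of same-numbered libraries correlated between -0.27 and 0.33 over the tables, and in none of the group pairs did every library correlate best with its own number. With the replicate number as a block, polyA against total RNA called 2 members in place of 0, generation 50 mRNA prg-1 called 0 in place of 2, and no other count moved past 1.5 times. edgeR and DESeq2 were not run on mRNA, where whole reads were not recovered. Median-ratio scaling returned the deposited scaling in all tables but that of polyA and total RNA, where the median of all genes moved by -0.03, and library totals moved the median of all genes by up to 1.09. Low depth limits C16C8.21 mRNA and C16C8.14 and C16C8.12 small RNA, and whether the 4 genes are absent from the DNA of the triple mutant strain was not measured. Changes of the list counts and folds with other scalings, chosen after seeing the data, stand beside those values.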

Other observations

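The low-level genes W03B1.5 and Y37H2A.3 also had no triple mutant read at generation 50, and they are given here after their values were seen. At generation 50 W03B1.5 was 23.8, 10.4 and 5.66 in the wild type, 15.4, 0 and 16.7 for prg-1 and 0, 0 and 31.5 for mut-14 smut-1, so that single libraries of other strains lacked it too. In the generation 1 triple mutant it was 0, 47.4 and 6.03. Y37H2A.3 at generation 50 was 25.2, 13.9 and 11.3 in the wild type, 33.9, 58.2 and 19.04 for prg-1 and 13.1, 14.5 and 24.6 for mut-14 smut-1, while in generation 1 it was at 0 in all 3 libraries of mut-14 smut-1 and of the triple mutant, in 2 prg-1 libraries and in 1 wild-type library.

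C16C8.6 was listed at 0 in every polyA and total RNA library, and the authors place it in the mut class of small RNA at generation 50. Its small RNA mean there was 99.1 in the wild type, 125 in prg-1 (log2 change 0.33, adjusted p = 0.332), 0.730 in mut-14 smut-1 (-5.93 ± 0.30, adjusted p = 1.10e-08) and 0 in the triple mutant. It was thus read in prg-1, where C16C8.20 and C16C8.21 small RNA fell to 3.18% and 0.286% of the wild type.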
